A study of Mus musculus with 4 samples.

Results

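The tropomyosin family was taken as the genes Tpm1, Tpm2, Tpm3 and Tpm4, found by matching Ensembl gene IDs to mouse symbols, which gave 4 of the 40137 gene units in the count tables and 124 of their 374286 bins. A bin is a piece of exon between annotated boundaries. The animals were wild-type male mice of the inbred strain C57BL/6J, aged 28 months (3 libraries) or 18 months (1 library), and the tissue was skeletal muscle of the thigh. The labels name no treatment and do not say whether the 28-month libraries came from separate animals, so p-values measure only the spread between these samples, and the fits take the single 18-month library to vary as the 28-month ones do. The sequencing was done beside an exon array study of alternative splicing with age, so the comparison of interest is whether tropomyosin amounts or exon choice differed between the ages.

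Tropomyosins are coiled-coil proteins that lie end to end along actin filaments. In striated muscle they work with the troponins: calcium binding to troponin moves tropomyosin on the filament and opens the sites where myosin binds. In skeletal muscle Tpm1 makes the alpha chain of fast fibres, Tpm2 makes the beta chain and Tpm3 makes the alpha chain of slow fibres, while Tpm4 in rodents is known for a short form of the cytoskeleton. Across the family, several proteins arise through a choice of first exon (1a or 1b), internal exon (2a or 2b, 6a or 6b) and last exon (9a to 9d). Not every gene has each choice. The skeletal muscle forms of Tpm1, Tpm2 and Tpm3 join exons 1a, 2b, 6b and 9a. Exon 2a is known from the smooth muscle form of Tpm1, and exon 6a from non-muscle forms and from the smooth muscle form of Tpm2.

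The exon pairs are shown first because the choice between them is what a mutually exclusive exon means. In 3 genes, exons 6a and 6b never occurred as separate exons of the same annotated coding transcript, and each was 76 bases long. A noncoding transcript of Tpm2 and one of Tpm3 keep the intron between the exons and so hold both. Tpm1 exons 2a and 2b were 126 bases each and occurred together in 1 annotated coding transcript, so that pair is exclusive but for 1 transcript. Sequences are from the GENCODE M21 transcripts (GRCm38), read 5′ to 3′ on the strand of the gene, and capitals mark the bases that differ from the partner exon at the same position when both are laid side by side without gaps.
Tpm1 exon 6a (chr9:67032466-67032541, minus strand): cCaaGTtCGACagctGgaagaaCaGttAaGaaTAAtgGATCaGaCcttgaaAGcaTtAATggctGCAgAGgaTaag
Tpm1 exon 6b (chr9:67031951-67032026, minus strand): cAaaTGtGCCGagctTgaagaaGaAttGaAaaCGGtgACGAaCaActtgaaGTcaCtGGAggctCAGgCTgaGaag
Tpm2 exon 6a (chr4:43519003-43519078, minus strand): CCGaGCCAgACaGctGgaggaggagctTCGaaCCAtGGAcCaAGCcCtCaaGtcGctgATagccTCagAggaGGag
Tpm2 exon 6b (chr4:43518644-43518719, minus strand): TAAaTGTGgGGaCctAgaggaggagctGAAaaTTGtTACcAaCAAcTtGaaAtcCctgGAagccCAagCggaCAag
Tpm3 exon 6a (chr3:90088401-90088476, plus strand): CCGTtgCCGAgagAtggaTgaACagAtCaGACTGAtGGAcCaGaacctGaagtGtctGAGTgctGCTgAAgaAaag
Tpm3 exon 6b (chr3:90089048-90089123, plus strand): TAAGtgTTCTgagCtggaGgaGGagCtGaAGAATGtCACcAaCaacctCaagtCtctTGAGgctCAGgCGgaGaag
Tpm1 exon 2a (chr9:67048124-67048249, minus strand): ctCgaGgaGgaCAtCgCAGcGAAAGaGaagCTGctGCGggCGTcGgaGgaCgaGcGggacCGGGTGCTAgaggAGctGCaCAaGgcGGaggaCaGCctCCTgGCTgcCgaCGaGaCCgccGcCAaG
Tpm1 exon 2b (chr9:67047786-67047911, minus strand): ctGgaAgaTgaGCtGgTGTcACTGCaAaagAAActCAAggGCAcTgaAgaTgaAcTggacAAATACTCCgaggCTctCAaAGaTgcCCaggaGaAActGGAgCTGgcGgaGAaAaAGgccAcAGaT

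Exons 6a and 6b differed at 33 positions in Tpm1, 35 in Tpm2 and 37 in Tpm3, an identity of 56.6, 53.9 and 51.3%, and Tpm1 exons 2a and 2b differed at 66 positions (47.6% identity). Exon 6b was more alike between genes than exon 6a was: Tpm1 and Tpm2 shared 73.7% of exon 6b and 64.5% of exon 6a, and Tpm1 and Tpm3 shared 75.0% and 65.8%. Tpm4 has a single exon 6, which matched exon 6b of the other genes at 71.1 to 73.7% of positions and their exon 6a at 43.4 to 55.3%. Exons 3, 4, 5, 6, 7 and 8 had the same lengths in all 4 genes, 134, 118, 71, 76, 63 and 70 bases.

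The libraries held 76163175, 75992582 and 67279205 counts in 28-month replicates 1, 2 and 3 and 65780464 counts at 18 months. Marker genes were checked because the extraction text describes epidermal cells while the labels name muscle. Fast fibre genes (13 of 13 tested, none at 0) summed to 113457 to 227279 CPM (counts per 1000000 counts of the library, after TMM scaling) at 28 months and 140101 CPM at 18 months, whereas the 7 keratinocyte markers summed to 1.04 to 1.12 CPM at 28 months, against 0.891 CPM at 18 months, with Krt5 and Ivl at 0 in all 4 libraries. Among the 28-month libraries, replicate 2 stood apart: fibroblast markers (6 of 7 in the tables, none at 0) summed to 2739 CPM in it, to 1037 and 1594 CPM in replicates 1 and 3 and to 1624 CPM at 18 months. Its fast fibre sum was 113457 CPM, against 223068 and 227279 CPM in replicates 1 and 3. Macrophage markers (7 of 7 tested) gave sums of 181, 249 and 292 CPM at 28 months, against 140 CPM at 18 months, and endothelial markers (6 of 6) 171, 346 and 204 CPM, against 234 CPM. In bulk tissue, fewer cells of a type and less RNA per cell cannot be told apart.

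No tropomyosin gene passed the test of amount on all 4 libraries. In CPM after TMM scaling, Tpm1 and Tpm2 at 18 months lay inside the 28-month range. Tpm3 and Tpm4 lay above it, so their 28-month estimates were lower. The edgeR quasi-likelihood test called 0 of the 4 genes at a Benjamini-Hochberg adjusted p under 0.05, and 0 of 15376 genes in all (0%), with 753 genes at an unadjusted p under 0.05 (4.9%). On the same libraries DESeq2 called 34 genes (0.221%) and limma voom 0, none of them a tropomyosin. Leaving out replicate 1 called 0 of all genes (0%) and leaving out replicate 3 called 1 (0.00648%), again no tropomyosin.

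Tpm1, the fast alpha chain (ENSMUSG00000032366, GRCm38 chr9:67022590-67049406, minus strand), had 41218, 19958 and 35950 CPM in 28-month replicates 1, 2 and 3, against 25822 CPM in the 18-month library. After TMM scaling replicate 2 was the low one, and the 18-month value fell between it and replicates 1 and 3. The TMM factor was 1.28 in replicate 2, 0.877 and 0.897 in replicates 1 and 3 and 0.990 at 18 months. The order of replicate 2 and the 18-month library depends on this scaling. The log2 difference (28 minus 18 months) was 0.33 ± 0.74 (SE) with an edgeR adjusted p of 0.946. Without replicate 2 it was 0.60 ± 0.14 and passed at an edgeR adjusted p of 0.0434, in a fit where 1799 of 15133 genes passed (11.9%) and 7.52% were called higher at 28 months. Of the 13 fast fibre genes, 10 had a positive and 3 a negative log2 difference (median 0.34, against 0.06 over all genes tested), none was called on 4 libraries (0 also at an unadjusted p under 0.05), and 7 were called without replicate 2, 6 higher and 1 lower at 28 months. The lower one was Myl1, a fast myosin light chain, with a log2 difference of -0.81 ± 0.43 (SE) on 4 libraries. The part of fibre makeup in the Tpm1 value was not tested.

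Tpm2, the beta chain (ENSMUSG00000028464, chr4:43514711-43523765, minus strand), had 6253, 3555 and 6277 CPM at 28 months, against 4970 CPM at 18 months. As for Tpm1, replicate 2 was low and the 18-month library lay inside the range. The log2 difference was 0.11 ± 0.56 (SE) with an edgeR adjusted p of 0.976, and it turned slightly negative without replicate 1 (-0.015) or without replicate 3 (-0.017). Without replicate 2 it was 0.36, at an adjusted p of 0.125.

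Tpm3, the slow alpha chain (ENSMUSG00000027940, chr3:90072649-90100902, plus strand), had 72.9, 58.3 and 123 CPM at 28 months, against 137 CPM at 18 months. The 18-month value was above all 3, though close to replicate 3. The log2 difference of -0.70 ± 0.46 (SE) had an edgeR adjusted p of 0.859, and -0.46 (adjusted p 0.344) without replicate 2. Slow fibre genes gave sums of 892, 805 and 1233 CPM at 28 months, against 984 CPM at 18 months, with 4 of 9 higher and 5 lower at 28 months in estimate (median log2 -0.26), 0 called and 0 at an unadjusted p under 0.05. None of the 9 was at 0, and their part in the Tpm3 value was not tested.

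Tpm4, the cytoskeletal member (ENSMUSG00000031799, chr8:72134975-72153142, plus strand), had 23.1, 41.3 and 24.5 CPM at 28 months, against 63.7 CPM at 18 months. All 3 older libraries were below the younger one, and replicate 2 was the nearest to it. The log2 difference was -1.10 ± 0.39 (SE), with an unadjusted p of 0.0367 and an edgeR adjusted p of 0.859. Without replicate 2 it was -1.40 ± 0.15 and passed at an edgeR adjusted p of 0.0151, where 4.37% of genes were called lower at 28 months. In that fit 4 of the 6 fibroblast markers were also called, all lower at 28 months; the median of the 6 log2 differences was -1.24, against 0.03 over all genes; on 4 libraries 0 of the 6 were called, 0 had an unadjusted p under 0.05, and the median was 0.12. Their part in the Tpm4 value was not tested. For Tpm3 and Tpm4 the 18-month CPM lay above the 28-month range, as it did for 26.4% of all genes tested, and 51.8% lay outside the range in either direction.

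**Figure D1:**
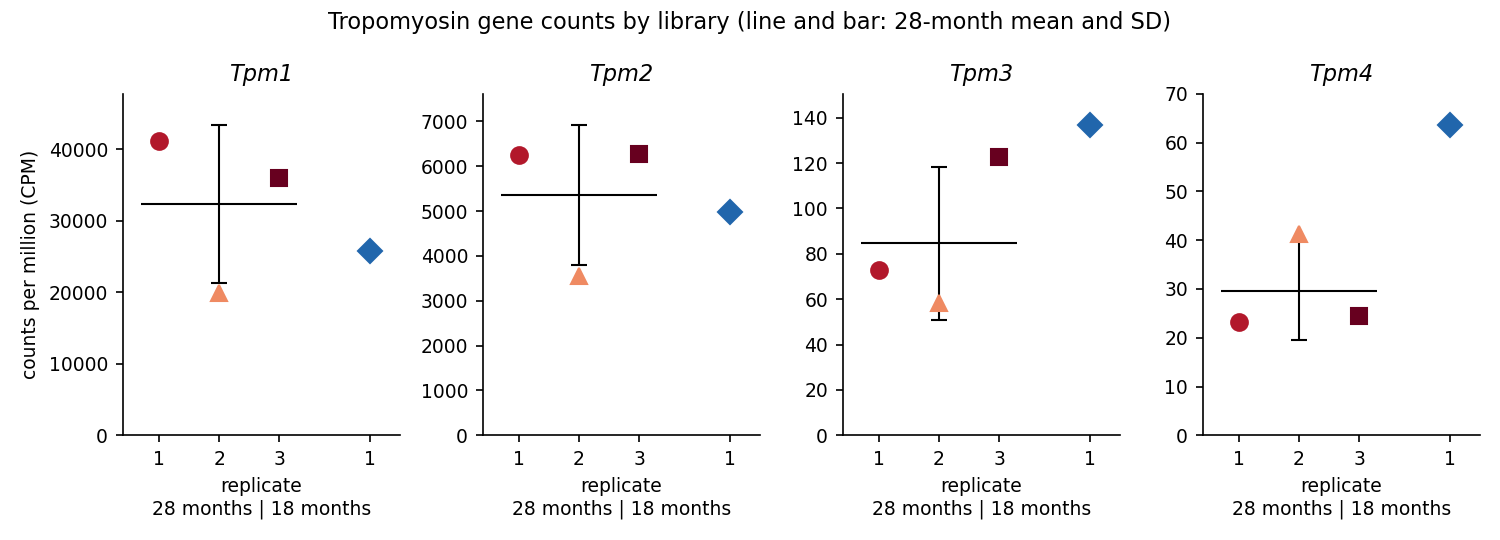
Each panel shows CPM of a tropomyosin gene on a linear axis from 0, with the 3 28-month replicates on the left and the 18-month library on the right; the line and bar are the 28-month mean and SD. Tpm1 and Tpm2 are low in 28-month replicate 2 (19958 and 3555 CPM), and the 18-month points for Tpm3 and Tpm4 (137 and 63.7 CPM) stand above all 28-month points.

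The Tpm4 difference sat mostly in its long last exon, as did most Tpm4 counts in every library. That exon held 77.3, 80.8 and 78.4% of them at 28 months and 88.2% at 18 months. A difference in its use was not called (log2 use -0.15, edgeR unadjusted p 0.810). Exon 9d, which holds the end of the coding sequence and the 3′ untranslated region, had 17.9, 33.4 and 19.2 CPM at 28 months, against 56.2 CPM at 18 months. Exons 3 to 6 together had 4.81, 7.26 and 5.04 CPM, against 7.42 CPM. The younger library was far above the older ones in the last exon. In exons 3 to 6 it was also above all 3, but close to replicate 2. Measured as the median over common coding exons, the 18-month level of Tpm4 lay inside the 28-month range (8.47, 15.2 and 9.15 CPM per kilobase at 28 months and 14.1 at 18 months). That median includes exons 7 and 8, which had few counts and have identical copies elsewhere, as given below.

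Compared per length, Tpm1 was the most abundant tropomyosin and Tpm2 came next in all 4 libraries. The summed bins of Tpm1 had 4992 ± 1707 CPM per kilobase (SD, n = 3) at 28 months and 3982 at 18 months, and those of Tpm2 had 1843 ± 538 and 1708. Tpm3 had 13.9 ± 5.54 CPM per kilobase at 28 months and 22.5 at 18 months, and Tpm4 had 13.5 ± 4.59 and 28.9. The last pair did not differ beyond its spread at 28 months, where Tpm4 was above Tpm3 only in replicate 2. Over common coding exons alone, which leaves out the long untranslated exons, Tpm3 had 91.5 ± 41.5 CPM per kilobase at 28 months and 152 at 18 months, above the Tpm4 values just given in every library.

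Tpm1 made a slightly larger part of the family in the older libraries. Over summed bins, Tpm1 made 72.4 ± 1.83% of tropomyosin CPM per kilobase at 28 months (SD, n = 3) and 69.3% at 18 months. Tpm2 made 27.1 ± 1.66% and 29.8%. The 18-month values lay just outside the older ranges, 71.1 to 74.5% for Tpm1 and 25.2 to 28.2% for Tpm2. The shares depended on the measure. Over common coding exons alone, Tpm1 made 86.5 ± 1.20% at 28 months. Tpm2 made 13.3 ± 1.15% at 28 months and 14.5% at 18 months. By that measure too, the 18-month share lay below the older range for Tpm1 and above it for Tpm2. The ratio of Tpm2 to Tpm1 CPM, not divided by length, was 0.152, 0.178 and 0.175 at 28 months, against 0.192 at 18 months. Replicate 2, low in both genes, was not low in this ratio, and the 18-month value lay above all 3 older libraries. The ratio of Tpm3 to Tpm1 was 0.00177, 0.00292 and 0.00341 at 28 months, against 0.00530 at 18 months, again above the range. These ratios compare the libraries and do not give the amounts of the chains, because the genes differ in summed bin length. They were not tested.

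At both ages almost all counts of each exclusive pair fell on the exon known from skeletal muscle, and exon 6a was not called in Tpm1 or Tpm2, the genes where it could be tested. Tpm1 exon 6a had 286, 166 and 177 counts at 28 months beside 244460, 182077 and 187630 for exon 6b, against 111 beside 124997 counts at 18 months. Exon 6a was thus 0.117, 0.0911 and 0.0942% of the pair in the older libraries and 0.0887% in the younger, and the exact 95% interval at 18 months (0.0730 to 0.107%) overlapped those of all 3 older libraries. Intervals here cover counting error only, and bins were matched to exons by their number along the gene, a placement the count tables themselves do not prove. The edgeR log2 difference in use of exon 6a was 0.47 with an unadjusted p of 0.564.

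In Tpm2 the share of exon 6a was lower at 18 months than in every older library. The exon had 199, 229 and 177 counts at 28 months beside 37871, 33988 and 32962 for exon 6b, against 84 beside 26309 at 18 months. The share was 0.523, 0.669 and 0.534% at 28 months (mean 0.575 ± 0.0815%, SD, n = 3), against 0.318% at 18 months, and the 18-month interval (0.254 to 0.394%) lay below the lowest bound of an older library (0.453%). The bin test uses the spread between libraries, pooled over the tested bins of the gene. In it, exon 6a of Tpm2 had a log2 difference in use of 0.98 with an edgeR unadjusted p of 0.303, so it was not called. The log2 difference was 0.86 to 1.06 with each 28-month library left out. Smooth muscle markers, genes of cells that also use this exon, gave sums of 253, 225 and 239 CPM at 28 months, against 208 CPM at 18 months (7 of 7 tested, none at 0, 5 higher and 2 lower at 28 months in estimate, median log2 0.13, 0 called and 0 at an unadjusted p under 0.05). Their part in the exon 6a share was not tested.

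Tpm3 exon 6a had 1, 14 and 3 counts at 28 months beside 279, 291 and 476 for exon 6b, against 0 beside 588 at 18 months. The 14 counts of replicate 2, 4.59% of the pair, set it apart from the other older libraries at 0.357 and 0.626%. Intron bins that touch exon 6a were highest in replicate 2 too. Bin 24, the 5 bases after the exon, held 9 counts there, 0 and 2 in replicates 1 and 3 and 0 in the younger library. Bin 22, the 340 bases before the exon, held 16 there, 0 and 3 in replicates 1 and 3 and 1 in the younger library. How many of the 14 counts came from RNA that keeps the intron was not tested. The 0 of 588 at 18 months allows a share of up to 0.510% (3 counts), and its interval (up to 0.625%) overlapped those of replicates 1 and 3, so a difference from them was not detectable at this depth. The exon 6a bin was too low to test, and its count is uncertain for another reason given with the copies below.

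Tpm1 exon 2a was the smaller part of its pair in all libraries, with 43, 21 and 16 counts at 28 months beside 252841, 169753 and 199757 for exon 2b, against 11 beside 163616 at 18 months. These were 0.0170, 0.0124 and 0.00801% of the pair at 28 months and 0.00672% at 18 months. The 18-month share was the lowest, but its interval (0.00336 to 0.0120%) overlapped that of replicates 2 and 3. Its log2 difference in use was 0.80 with an edgeR unadjusted p of 0.531.

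**Figure D2:**
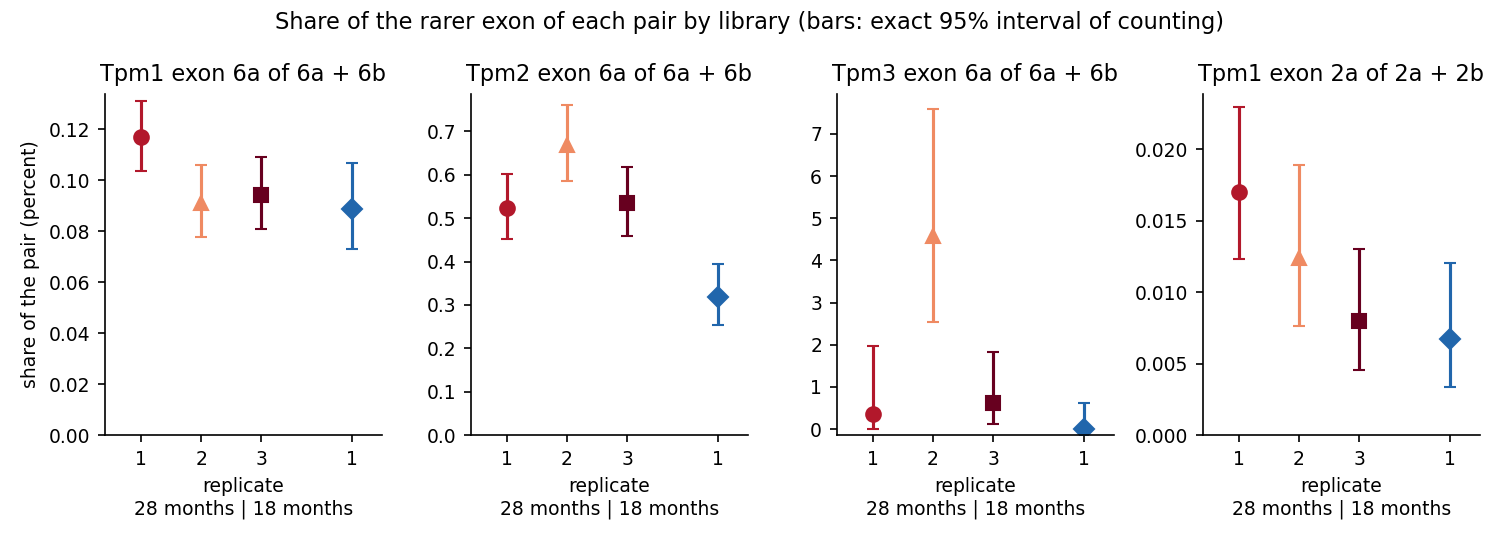
The share of the rarer exon in each pair, in percent, is plotted for the 3 28-month replicates (left) and the 18-month library (right), with exact 95% intervals of counting; each panel has its own linear axis. In Tpm2 the 18-month share of exon 6a (0.318%) lies below the 28-month shares (0.523 to 0.669%), and in Tpm3 replicate 2 (4.59%) stands above the rest. Intron bins that touch Tpm3 exon 6a were also highest in that replicate.

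First exon 1b, which starts the short cytoskeletal forms, was scarce in the sarcomeric genes. In Tpm1 its coding bin had 9, 20 and 15 counts at 28 months, against 1 count at 18 months, beside 95060 to 151533 counts for the coding bin of exon 1a at 28 months and 118004 at 18 months. In Tpm3 exon 1b had 20, 28 and 20 counts at 28 months beside 546, 502 and 833 for exon 1a, and 17 counts beside 1157 at 18 months, a share of 3.53, 5.28 and 2.34% against 1.45%. In Tpm4, whose annotated coding transcript starts at exon 1b, that exon had 21, 14 and 14 counts at 28 months, against 1 at 18 months. In all 3 genes the 18-month value was the lowest. The 18-month interval of the Tpm3 share (0.846 to 2.31%) overlapped those of replicates 1 and 3. The edgeR unadjusted p for use of these exon 1b bins was 0.143 in Tpm1 and 0.452 in Tpm3. For Tpm4 the log2 difference in use was 4.85, at an edgeR unadjusted p of 0.00739 and an adjusted p of 0.481; with so few counts the size of this fold depends on the fit.

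Last exons followed the skeletal pattern in Tpm1. Exon 9d of Tpm1, the end of its non-muscle forms, had 668, 1001 and 555 counts at 28 months beside 173186, 125421 and 126247 for exon 9a, against 889 beside 81265 at 18 months. The 9d part of the pair was 0.384, 0.792 and 0.438% at 28 months and 1.08% at 18 months, where it was the highest, with an edgeR unadjusted p of 0.299 for its use. Per base, the Tpm1 part was 0.0371, 0.0768 and 0.0423% at 28 months and 0.105% at 18 months. The 9d counts, from a bin of 820 bases, were not far above those of the intron beside it. Bin 7, 882 bases of that intron, held 818, 409 and 433 counts in replicates 1, 2 and 3, against 246 in the younger library. In replicate 1 this exceeded the 668 counts of exon 9d. Bin 7 was lowest in the younger library, where exon 9d had its highest part. How much of the 9d count came from RNA that keeps this intron was not tested. In Tpm3 exon 9d was a larger part. Per base it made 9.79, 19.8 and 6.31% of exons 9d and 9a at 28 months and 14.2% at 18 months, a value inside the older range. In Tpm2, bins 1 and 2 at the 3′ end are shared by the transcripts that end in exon 9a and those that end in exon 9d. Bins 3 and 5 belong to the exon 9a transcripts alone, but no bin belongs to exon 9d alone, so its share could not be given.

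Exon use was tested in 92 of the 124 tropomyosin bins, and 1 was called (1.09%), against 523 of 143485 bins over all genes (0.364%). A further 32 bins were too low to test, of which 7 had 0 counts throughout. An unadjusted p under 0.05 was reached by 5 of 92, against 5.35% of all bins. The 18-month share lay outside the 28-month range in 71 of the 92 bins, beside 76% of all bins tested. Per gene, the Simes test called none of the 4, with edgeR adjusted p of 0.0909 for Tpm1, 0.440 for Tpm4 and 1.00 for Tpm2 and Tpm3, against 377 of 11000 genes (3.43%). Without replicate 2 the Simes test called Tpm1 and Tpm4 (edgeR adjusted p 4.76e-07 and 8.44e-05), in a fit that called 30.3% of genes, and without replicate 1 or 3 it called none of the 4, where 2.09 and 1.51% of genes were called. On all 4 libraries with the first and last tested bin of each gene left out, Tpm1 was called (edgeR adjusted p 0.00813), where 1.77% of genes and 0.195% of bins were.

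The called bin was bin 14 of Tpm1, 816 bases (chr9:67028848-67029663) that run on from exon 9a into the next intron and belong to 1 annotated transcript. It had 119, 573 and 129 counts at 28 months, against 1264 at 18 months. As a share of all Tpm1 counts this was 0.00432, 0.0294 and 0.00594% at 28 months and 0.0752% at 18 months, above every older library, with replicate 2 between the others and the younger one. The log2 difference in use was -2.89 at an edgeR adjusted p of 0.0330; 0.155% of all bins were called lower at 28 months. The call was lost when bins needed a mean of 50 counts (adjusted p 0.0798), without replicate 1 (0.947, with 0.23% of all bins called) and without replicate 3 (0.867, with 0.158% called), and held without replicate 2 (1.18e-07).

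Noncoding bins on the intron side of Tpm1 exons went either way. Bin 16, 1109 bases beyond exon 8, had 1832, 1369 and 627 counts at 28 months, against 170 at 18 months (log2 use 2.40, edgeR adjusted p 0.639, and 0.0300 by limma voom, which called 2.28% of all bins). Bin 25, 98 bases beyond exon 4, had 9133, 6761 and 7365 counts at 28 months, against 16441 at 18 months. Its share was 0.332, 0.347 and 0.339% at 28 months and 0.978% at 18 months, the older libraries lying close together, but the edgeR adjusted p was 0.993. That test pools the spread over the tested bins of the gene. Bin 20, 246 bases between exons 6a and 6b, had 15, 34 and 285 counts at 28 months, against 6 at 18 months, so that replicate 3 alone carried its high value (edgeR adjusted p 0.215). Bins 16, 20 and 25, named after their values were seen, were called beside bin 14 and the exon 1b bin of Tpm4 without replicate 2, in a fit that called 7.17% of all bins.

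**Figure D3:**
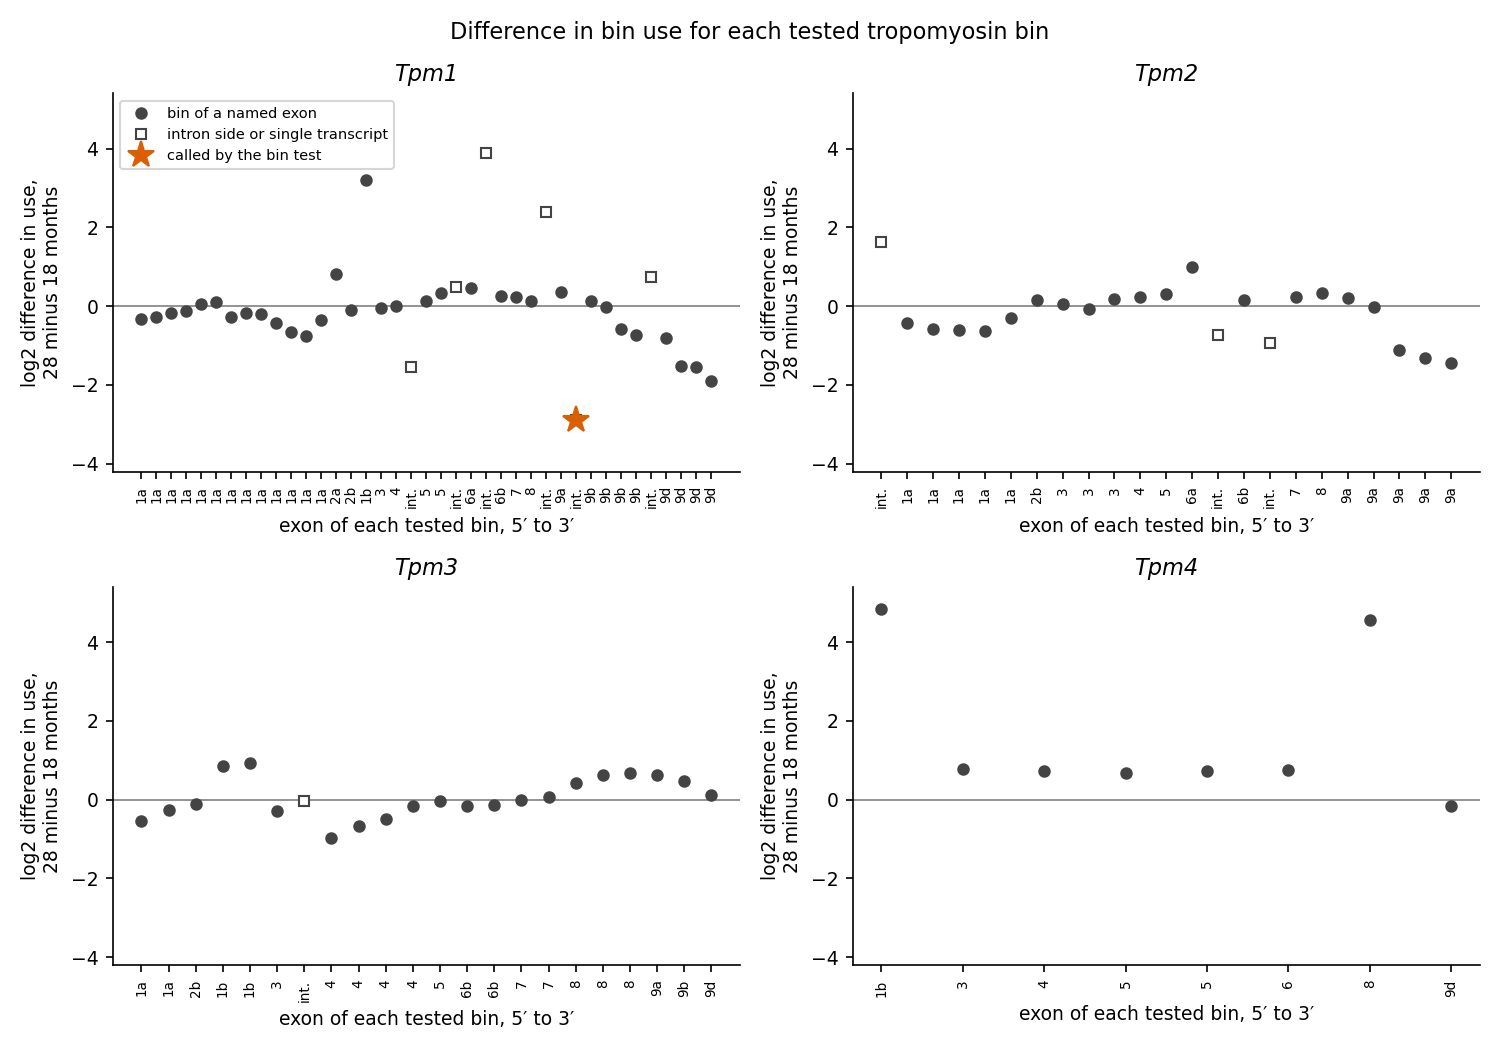
Each point is a tested bin, placed 5′ to 3′ and labelled by exon, and its height is the log2 difference in use, 28 minus 18 months; open squares (int.) lie on the intron side of an exon or in a single transcript, and the star is the called bin. The bins range from -2.89, the called bin of Tpm1, to 4.85, the exon 1b bin of Tpm4.

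The 18-month share stood above or below the older range by position along Tpm1 and Tpm2, and of these bins of named exons none was called. In Tpm1 it was above the range in exons 2b and 3 and in 7 of the 13 tested bins of exon 1a (inside it in the other 6), inside it in exon 4, and below it in exons 5, 6b, 7, 8 and 9a. Exon 9b was mixed, with its coding bin below the range and its end above. In Tpm2 it was above the range in all bins of exon 1a, mixed or inside it in exons 2b and 3, and below it in exons 4, 5, 6b, 7 and 8. The 3′ end of Tpm2 was mixed. The 18-month share there was above the range in bins 1 and 2, which exon 9d shares, and in bin 3 of exon 9a. It was inside the range in bin 4 and below it in bin 5. The bins given as examples were chosen after their values were seen. The 3′ untranslated bin 3 of Tpm2, 820 bases of exon 9a, had 12740, 11796 and 10310 counts at 28 months, against 21163 at 18 months, which is 3.05, 3.40 and 2.72% of the gene against 6.54%. Its log2 difference in use was -1.12 with an edgeR unadjusted p of 0.246. At the other end, bin 38 of Tpm1, where its coding sequence starts in exon 1a, had 2.96, 2.44 and 3.18% of the gene at 28 months and 4.93% at 18 months.

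Of the exons inside the gene, Tpm1 exon 2b had 9.18, 8.72 and 9.20% of the gene's counts at 28 months and 9.73% at 18 months. Exon 6b had 8.88, 9.35 and 8.64% at 28 months and 7.43% at 18 months, and exon 9a had 6.29, 6.44 and 5.82% at 28 months and 4.83% at 18 months. Tpm2 exon 8 had 7.55, 8.07 and 6.98% at 28 months and 5.87% at 18 months. Neighbouring bins share fragments, so these are not separate observations. The smallest p in Tpm2 was that of bin 23, upstream of exon 1a, with 278, 51 and 233 counts at 28 months, against 55 at 18 months (edgeR unadjusted p 0.107), where replicate 2 was as low as the younger library.

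**Figure D4:**
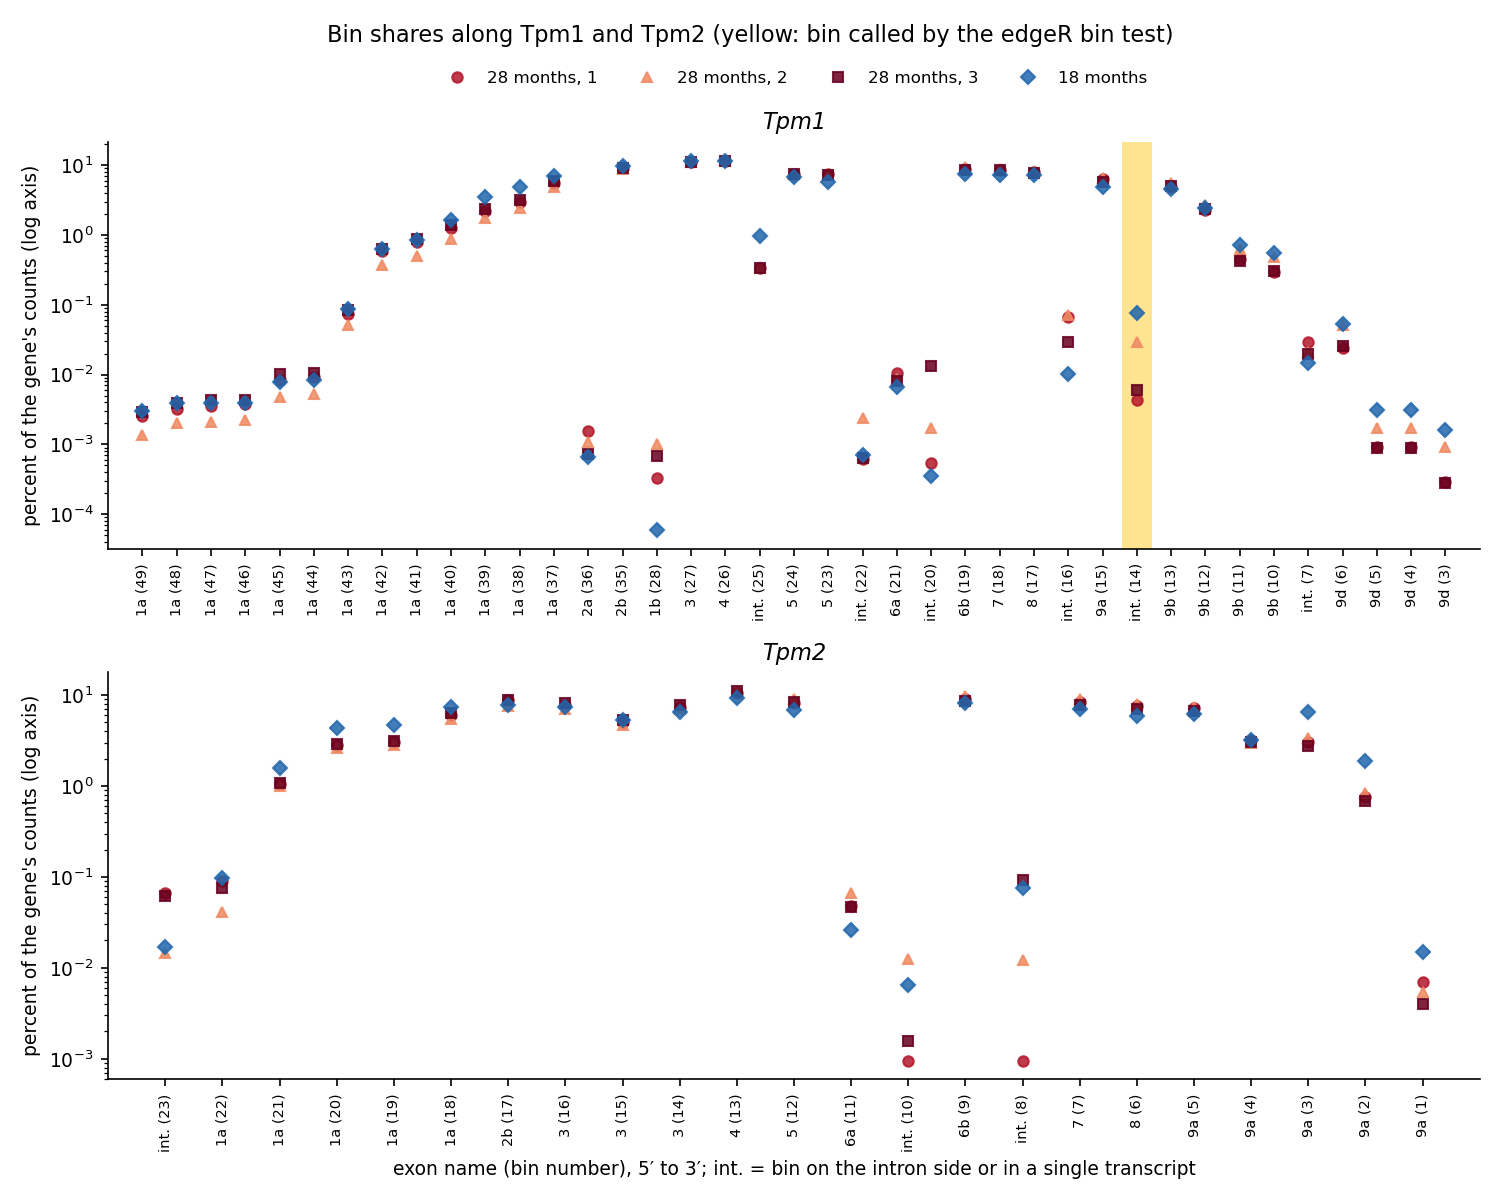
For Tpm1 and Tpm2, the percent of the gene's counts in each tested bin is plotted 5′ to 3′ on a log axis, 1 point per library, with exon names and bin numbers below. Exons 2a, 1b and 6a lie orders below their neighbours in all libraries, and the called bin 14 (yellow) is highest at 18 months (0.0752%). Bins 1, 2 and 3 at the 3′ end of Tpm2 stand higher at 18 months (6.54% in bin 3).

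In Tpm3 the 18-month share was above the older range in exons 1a, 2b, 3, 4 and 6b, inside it in exons 5 and 7 and the tested bin of exon 9d, and below it in the tested bins of exon 1b and in exons 8, 9a and 9b. Exon 3 had 5.11, 3.15 and 5.45% of its counts at 28 months, against 5.91% at 18 months, while exon 9a had 6.51, 6.09 and 7.31% at 28 months and 4.42% at 18 months. Of its 22 tested bins, 0 were called and 0 had an unadjusted p under 0.05. Its smallest p belonged to bin 14, a single base at the start of exon 4, with 78, 30 and 53 counts at 28 months, against 161 at 18 months (log2 use -0.97, edgeR unadjusted p 0.210).

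Several exons of Tpm3 and Tpm4 have identical copies elsewhere in the annotation, which limits what their counts mean. Exons 3, 4, 5, 6a, 7 and 8 of Tpm3 were 100% identical to the retrogene Tpm3-rs7, exon 9d was 99.1% identical over its whole length, and exon 1b was 98.5% identical over 199 bases. Exons 6b, 9a and 9b had no such copy (75.0% for exon 6b, to Tpm1). Reads inside an identical or nearly identical exon can be assigned to either gene or dropped, so the counts of these exons, the low ones of exon 6a and the shares of exons 1b and 9d included, are uncertain. Tpm3-rs7 itself had 507, 834 and 654 counts at 28 months, against 1030 at 18 months, with its 18-month CPM (15.8) above the older values (7.59 to 10.8), an order it shares with Tpm3. Its log2 difference was -0.81 ± 0.31 (SE), with an edgeR adjusted p of 0.859.

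In Tpm4, exons 7 and 8 were 100% identical to the processed pseudogene Gm7809. Exon 7 had 3, 8 and 2 counts at 28 months, against 4 at 18 months, and exon 8 had 6, 43 and 0 counts and 1 count. Exon 6 beside them, 98.7% identical to the pseudogene, had 43, 113 and 42 counts at 28 months, against 70 at 18 months. The drop at exons 7 and 8 was present in all 4 libraries, and only replicate 2 had more than 10 counts in either. Exon 3 of Tpm4 overlaps the antisense gene Gm26586, which is listed at 0 in all 4 libraries.

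**Figure D5:**
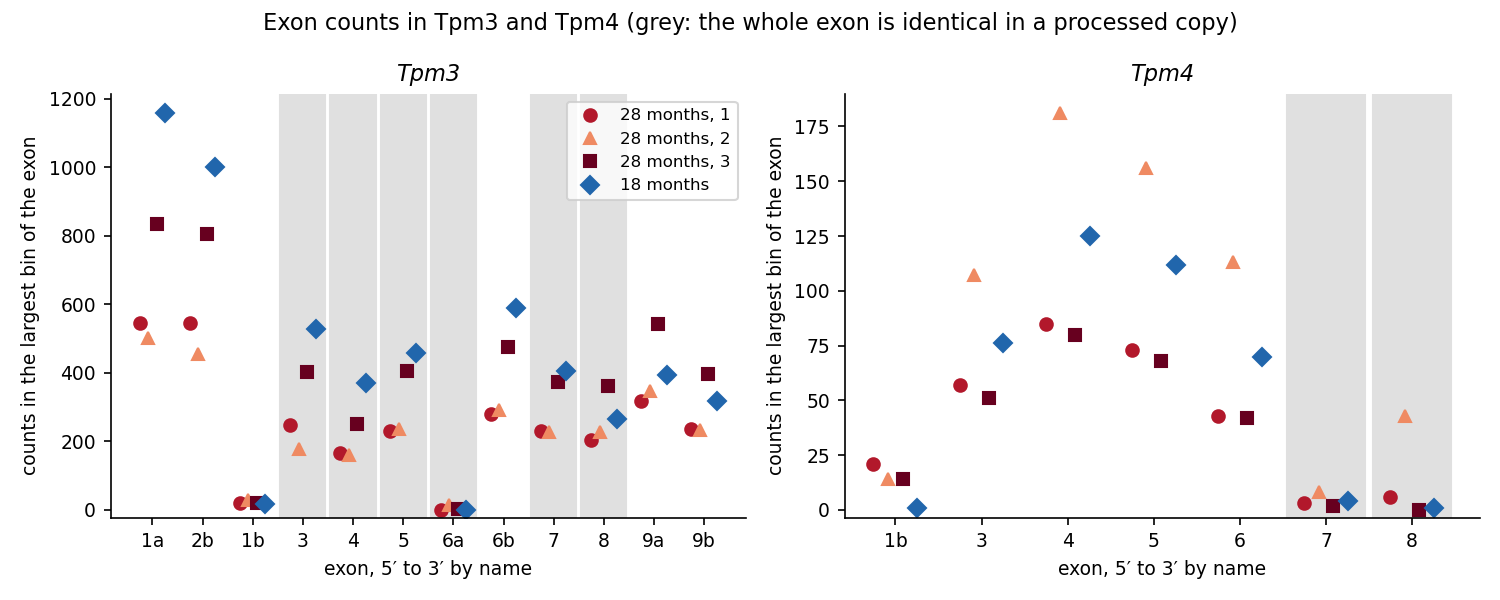
Counts in the largest bin of each exon are shown for Tpm3 and Tpm4 on linear axes, without the long last exons, and grey bands mark exons wholly identical to Tpm3-rs7 or to Gm7809. Tpm4 falls to at most 8 counts in exon 7 next to 42 to 113 in exon 6, and Tpm3 exon 6a has at most 14 counts next to 279 to 588 in exon 6b.

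Of the genes whose proteins sit on the thin filament with tropomyosin (troponins, actins, capping and severing proteins), 0 of 18 passed the edgeR test and 1 had an unadjusted p under 0.05. In estimate 6 were higher and 12 lower at 28 months, and their median log2 difference was -0.20, beside 0.06 for all genes. Actc1, the cardiac actin that is also made in developing skeletal muscle, had 51.4, 34.6 and 79.8 CPM at 28 months, against 174 CPM at 18 months, above all 3. Its log2 difference was -1.66 ± 0.47 (SE), with an edgeR unadjusted p of 0.0154 and adjusted p of 0.859. Capza1 and Capza2, subunits that cap actin filaments, had -0.73 ± 0.34 and -0.30 ± 0.34. Cfl2, the muscle cofilin that severs actin, had -0.43 ± 0.41. Tnnt3, the fast troponin T that anchors the complex on tropomyosin, had 0.79 ± 0.65, and Tnnc1, the slow and cardiac calcium sensor, had -0.53 ± 0.53. Without replicate 2, 5 of the 18 were called, 3 higher and 2 lower at 28 months, where 11.9% of all genes were.

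Splicing factors with known tropomyosin or muscle exon targets were mostly lower at 28 months in estimate, without passing the test. Of 13 listed genes 11 were tested, 0 were called and 1 had an unadjusted p under 0.05, with 3 higher, 8 lower and a median log2 difference of -0.27. Mbnl2, a muscleblind protein that switches exons during muscle development, had 135, 123 and 127 CPM at 28 months, against 216 CPM at 18 months. The older libraries lay close together and the younger stood apart, at a log2 difference of -0.75 ± 0.27 (SE), an edgeR unadjusted p of 0.0354 and an adjusted p of 0.859. Its relative Mbnl1 had 244, 235 and 274 CPM at 28 months, against 384 CPM at 18 months. Hnrnpa1 and Rbfox1, both RNA-binding regulators of exon choice, had log2 differences of -0.65 ± 0.27 and -0.32 ± 0.27. Without replicate 2, 2 of the 11 were called, both lower at 28 months, in the fit that called 11.9% of all genes and 4.37% lower.

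The genes whose levels over the 4 libraries were most like each tropomyosin were found by the root mean square (RMS) difference of centred log2 CPM among 7640 genes with a mean of at least 10 CPM. For Tpm3 these were Tnnc1 (RMS 0.0988), Tnnt1, the slow troponin T (0.116), and Bgn, a matrix proteoglycan (0.145). Tnnt1 had 73.4, 61.0 and 141 CPM at 28 months, against 126 CPM at 18 months, near the order of Tpm3 but with its 18-month value inside the range. For Tpm1 they were Def8 (0.0159), Myl3, a slow myosin light chain (0.0217), and Gm10260 (0.0230). For Tpm2 they were Ipo5, an importin (0.0144), Pde4d, a phosphodiesterase (0.0195), and Rab12, a small GTPase (0.0209). For Tpm4 they were Mex3c, an RNA-binding protein (0.0727), 2510009E07Rik (0.0936) and BC023105 (0.101). With 4 libraries such likeness is a description only.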

How the data were processed

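RNA-seq of thigh muscle gave 4 tables, 3 at 28 months and 1 at 18 months. The deposited values are raw counts per exonic bin with no normalization; per the submitters' processing notes, bcl2fastq 1.8.3, TopHat2 2.0.4 and GRCm38 were used. The counting program, annotation release and strand use are not given in the sources used here, so reads of a gene and its antisense partner cannot be told apart. Bin names have the form of DEXSeq counting, where a fragment spanning several bins counts in each, and gene sums therefore count it more than once. The 5 entries that name no gene were 3.36 to 4.56% of the total at 28 months and 5.20% at 18 months; they entered no total.

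Bins were summed per gene. Genes with a mean count of at least 10 were scaled by TMM and tested by quasi-likelihood in edgeR, and bins by edgeR diffSpliceDGE (Simes per gene; bins joining several genes left out), with Benjamini-Hochberg adjustment over all features and calls at an adjusted p under 0.05. The gene fit had 2 residual degrees of freedom for 4 libraries. The bin test pools the spread between libraries over the tested bins of a gene, so its p does not rest on the bin's own spread alone. Log2 use is a bin's difference relative to the rest of its gene. Exon shares carry exact (Clopper-Pearson) 95% intervals, and a count of 0 a limit of 3 counts. Bins were placed by number on the flattened GENCODE M21 annotation, which had the same number of bins for each member (49, 23, 42 and 10); equal numbers do not prove the placement. Copies were searched with BLAST 2.17.0 among M21 transcripts. The gene and bin tests were tried on simulated data.

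The members and lists were chosen with earlier results of these data known. Named were the 4 members, called bins, each gene's bin of smallest p, up to 4 genes per list (6 for the thin filament) by smallest p, and 3 genes most like each member; not every such gene is given. Alternatives were DESeq2 size factors and Wald test, limma voom, other count filters, end bins left out, library totals without mitochondrial and the 20 most abundant genes, and each 28-month library left out. Tools were Python 3.11.15 with scipy 1.17.1, pandas 2.3.3, numpy 2.4.6 and matplotlib 3.10.9, and R 4.3.3 with DESeq2 1.42.0, limma 3.58.1 and edgeR 4.0.16.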

Additional observations from a re-analysis of the deposited data

How the results depend on the processing

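Leaving out 28-month replicate 2 moved the most results. Gene calls numbered 0, against 34 by the DESeq2 Wald test and 0 to 1799 with each 28-month library left out. Genes called for exon use numbered 377, against 172 when bins needed a mean of 50 counts, 1655 by limma voom, 167 without end bins and 167 to 3230 with a library left out; bins numbered 523, against 209, 3269, 236 and 229 to 9680 in the same order. Tropomyosin bins called numbered 1, against 0 with the stricter filter, 2 by limma voom and 0 to 5 with a library left out. With a library left out, log2 differences ran from 0.12 to 0.60 in Tpm1, -0.017 (without replicate 3) and -0.015 (without replicate 1) to 0.36 in Tpm2, -1.06 to -0.46 in Tpm3 and -1.40 to -0.95 in Tpm4; Tpm1 and Tpm4 passed without replicate 2. These fits take their spread from the remaining pair, and for the other changes the cause was not tested. Over the other scalings and tests the 4 genes kept their sign and stayed short of the threshold. The Tpm1 exon 6a ratio, 28 over 18 months, was 1.14 within the pair and 1.37 as a share of the gene. Levels per length over common coding exons were 40489, 6129 and 91.5 CPM per kilobase for Tpm1, Tpm2 and Tpm3 at 28 months. That measure leaves out long untranslated exons and can be raised by short bins. Leaving out libraries from these levels was added after seeing the data. No paired analysis was possible because the 18-month group has 1 library, so the groups share fewer than 2 replicate numbers. Exons 2a and 6a rest on at most 286 counts a library, and the lone 18-month library limits every comparison.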
